A study of Mus musculus with 4 samples.

Results

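Metalloproteinases and their tissue inhibitors were followed through 4 single-cell libraries, 2 of a prostate tumor graft and 2 of subcutaneous adipose tissue (SAT). The genes were all those whose symbol is Mmp, Timp, Adam or Adamts followed by a number and at most 1 letter, which gave 78 of the 31053 genes in the tables. Of these, 44 had 20 or more unique molecular identifiers (UMIs, each standing for 1 captured RNA molecule) over the 4 libraries: 14 of 22 Mmp genes, 4 of 4 Timp genes, 13 of 33 Adam genes and 13 of 19 Adamts genes. Another 19 had 1 to 19 UMIs, and 15 had none, 12 of them Adam genes and the others Mmp1b, Mmp20 and Mmp21. Adamts18 with 20 UMIs and Adam7 with 26 lay just inside the limit, while Adam30 with 17 and Mmp25 and Adamts17 with 15 each lay just outside it. Because the limit was set on the sum of both tissues, a gene could pass it through the tissue in which it was high.

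All mice were of the FVB strain (spelled VFB in the sample labels) and were fed chow, with neither age nor pooling of animals given in the sources used here. Grafts were made under the skin from MycCaP, a prostate cancer cell line derived from HiMyc mice, so that all cancer cells of a tumor come from 1 line in a host that keeps its own stroma. The D-CAN groups received, under the skin, a peptide of D-amino acids in which a sequence that homes to adipose stromal cells (ASC) is linked to an amphipathic, cell-killing sequence, and the control groups received PBS. SAT was inguinal and was represented by its stromal and vascular cells, whereas the tumor libraries held cancer and stromal cells. Dead cells and red blood cells were removed from all 4 preparations, and each of the 4 groups (tumor control, tumor D-CAN, SAT control, SAT D-CAN) was 1 library. With 1 library per group there is no test between groups, and all 95% intervals given here cover counting error only. Where 4 values follow each other, they are in the order tumor control, tumor D-CAN, SAT control, SAT D-CAN.

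Matrix metalloproteinases (MMPs) are zinc endopeptidases, secreted or held in the membrane, that cleave collagens and other matrix proteins after their propeptide has been removed. Tissue inhibitors of metalloproteinases (TIMPs) are small secreted proteins that block the active site of MMPs and of some relatives. ADAM proteins are mostly membrane-anchored, and several of them release growth factors, cytokines and receptors from the cell surface, while ADAMTS proteins are secreted and cut procollagens or proteoglycans such as versican. In adipose tissue and in tumors alike, fibroblasts are known as a main source of these enzymes and their inhibitors. RNA counts show neither the activation of a protease nor its inhibition.

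The libraries held 2830, 1525, 2851 and 1922 cells and between 6667064 and 17996284 UMIs each. Cells were assigned to 9 classes from lists of 10 marker genes, none of them a metalloproteinase or TIMP, and 6700 of 8986 cells with at least 200 genes (74.6%) received a class. Assigned cells were 64.1% and 71.9% in the tumor libraries and 75.5% and 90.5% in SAT, and in 3 libraries the unassigned cells had a median of 20.8% to 23.9% mitochondrial UMIs, against 5.75% to 6.68% in the assigned cells. Levels are UMIs of a gene per 1000000 UMIs of the class in a library (CPM), with an exact Poisson interval, and a level is described only for classes of at least 30 cells unless the number of cells is stated. Fibroblast-like cells numbered 115, 73, 241 and 74, mural-like cells 57, 32, 50 and 41, endothelial-like cells 88, 57, 391 and 153, and macrophage-like cells 398, 288, 49 and 28. Cancer-like cells numbered 1088 and 574 in the tumor libraries and 1 and 0 in SAT. T/NK-like cells (683 and 720) and B-like cells (681 and 644) reached 30 cells in SAT alone.

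The 10 fibroblast markers summed to 35394, 30180, 44777 and 46323 CPM in fibroblast-like cells. Fibroblast-like and mural-like cells were less separate in tumor than in SAT. The 10 mural markers summed to 10775, 12932, 16058 and 19318 CPM in mural-like cells. In tumor, these cells held 10005 and 15734 CPM of the fibroblast list, against 992 and 969 in SAT. They had 9 of its 10 markers, all but Lum or Clec3b, where SAT mural-like cells had 5 and 7 and lacked Lum, Pdgfra and Fbln1. In tumor D-CAN the fibroblast sum of the mural-like cells was above their mural sum, so the name mural-like stands there only for the number of markers detected per cell. In the other direction, tumor fibroblast-like cells held 6272 and 5798 CPM of the mural list with 10 of 10 markers, against 215 and 139 in SAT. Endothelial-like cells held little of the fibroblast list in any library, at 58.9, 102, 91.2 and 59.2 CPM. Of the cancer list, 8 of 10 markers were detected in cancer-like cells, with Cldn7 at 0 in both tumor libraries, Cdh1 at 0 in tumor control and Epcam at 0 in tumor D-CAN, so these cells lacked some defining markers of epithelium. Pairs of libraries shared between 0 and 2 cell barcodes.

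Most metalloproteinase genes with enough reads had their highest level in stromal cells. In both tumor libraries, 20 of 36 genes with at least 20 UMIs in assigned cells (55.6%) were highest in fibroblast-like or mural-like cells, where 21.9% of all genes that are not class markers were. In both SAT libraries the same held for 22 of 35 (62.9%), with 27.5% of all such genes. The 22 included the secreted and membrane MMPs Mmp2, Mmp3, Mmp11, Mmp14, Mmp17, Mmp19, Mmp23 and Mmp27, the inhibitors Timp1, Timp2 and Timp3, and the matrix-cleaving Adamts1, Adamts2, Adamts4, Adamts5, Adamts10, Adamts12 and Adamts15. When every cell was thinned to 1000 UMIs, the SAT count was 13, with the 20 UMI limit applied to the thinned counts. The share over all genes was not computed for thinned cells. Genes that were highest elsewhere included Mmp12 and Adam8 in tumor macrophage-like cells, and Adam10, Adam15 and Timp4 in endothelial-like cells.

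**Figure D1:**
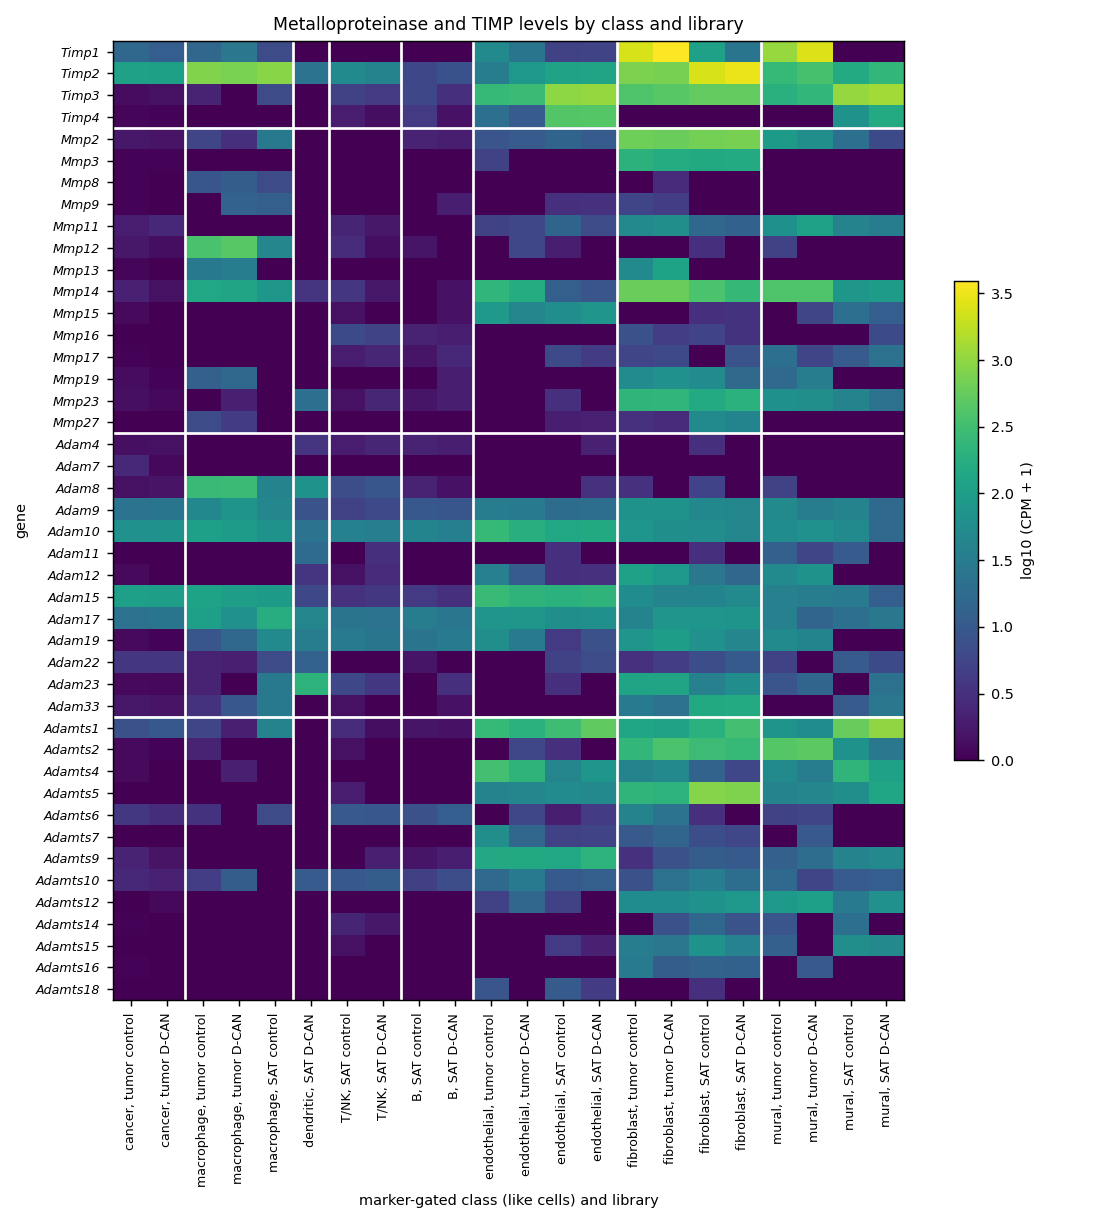
Level of the 44 metalloproteinase and TIMP genes by class and library. Rows are genes, columns are the libraries of each class that hold at least 30 cells, and colour is log10(CPM + 1). Timp1 is brightest in the fibroblast columns of tumor and at 0 in the mural columns of SAT, Mmp12 and Adam8 are brightest in the macrophage columns of tumor, and Timp4 is brightest in the endothelial columns of SAT.

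Timp1, a secreted inhibitor of most MMPs and a growth-promoting factor for some cells, lies on chromosome X (GRCm38 chrX:20870166-20874735, forward strand). Its level in fibroblast-like cells was 2422 CPM (95% interval 2277 to 2572) in tumor control, 3936 (3776 to 4101) in tumor D-CAN, 115 (86.2 to 150) in SAT control and 24.0 (11.5 to 44.1) in SAT D-CAN. Both tumor libraries were above both SAT libraries, without overlap of the intervals. The ratio of tumor to SAT, with 0.5 UMI added to each sum, was 4.39 on the log2 scale (4.005 to 4.82) for the control pair and 7.29 (6.48 to 8.42) for the D-CAN pair. In mural-like cells Timp1 stood at 1083 and 2583 CPM in tumor and at 0 UMIs in both SAT libraries, at least 36.7-fold and at least 161-fold higher in tumor when 3 UMIs are allowed for the 0 in each SAT library. A single cell held 57.3% of the Timp1 UMIs of the tumor D-CAN mural-like cells, against 8.03% in tumor control.

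Because depth per cell differed between libraries and classes, shares of cells were taken after thinning each cell to 1000 UMIs. This left out 17, 4, 124 and 5 shallower fibroblast-like cells. Timp1 was then detected in 65.3% of fibroblast-like cells of tumor control (exact Clopper-Pearson interval 55.0% to 74.6%), 65.2% of tumor D-CAN (52.8% to 76.3%), 11.1% of SAT control (6.05% to 18.3%) and 1.45% of SAT D-CAN (0.0367% to 7.81%). The tumor shares lay above both SAT shares without overlap of the intervals. It was detected in 51.9% and 53.1% of tumor mural-like cells and in none of those in SAT, which allows shares of up to 9.38% and 7.50%. T/NK-like cells of SAT had no thinned cell with Timp1, which allows up to 0.482% and 0.448%. Without thinning, median depths of fibroblast-like cells were 3573, 7326, 974 and 5586 UMIs, and the shares with Timp1 were 74.8%, 86.3%, 13.7% and 9.46%. With stromal cells kept only where the other stromal list had at most 0.5 times as many markers, an alternative chosen after the data were seen, Timp1 in fibroblast-like cells was at 2291, 3250, 115 and 24.4 CPM.

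Timp2, which inhibits MMPs and also joins with Mmp14 in the activation of proMmp2, had the opposite order of tissues in fibroblast-like cells. Its level was 765 CPM (685 to 852) in tumor control, 709.5 (643 to 782) in tumor D-CAN, 2418 (2279 to 2562) in SAT control and 3121 (2953 to 3295) in SAT D-CAN. The log2 ratio of tumor to SAT was -1.66 (-1.84 to -1.48) for the control pair and -2.14 (-2.30 to -1.98) for the D-CAN pair. Macrophage-like cells also carried Timp2, at 822, 756, 908 and 461 CPM, the last from 28 cells in which 1 cell held 46.9% of the UMIs. Cancer-like cells were at a lower level, 112 and 109 CPM, but held 1441 and 1235 of the 5002 Timp2 UMIs in assigned tumor cells. After thinning, 43.9%, 44.9%, 77.8% and 79.7% of fibroblast-like cells had a Timp2 UMI (unthinned 64.3%, 86.3%, 74.3% and 91.9%), against 0.326% and 0.484% of B-like cells in SAT.

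Timp3, the inhibitor that binds to the extracellular matrix and also blocks Adam17, was spread over fibroblast-like, mural-like and endothelial-like cells. In fibroblast-like cells it was at 403, 451, 535 and 542 CPM, with both tumor libraries within 2-fold of SAT. In mural-like cells it was lower in tumor, at 190 CPM (140 to 251) and 242 (181 to 317) against 1071 (879 to 1291) and 1263 (1107 to 1435) in SAT. Endothelial-like cells showed the same order, with 259 and 282 CPM in tumor against 963 and 1064 in SAT, or log2 ratios of -1.88 and -1.91. After thinning, 20.5% and 14.9% of tumor endothelial-like cells had Timp3 against 57.4% and 58.7% in SAT (unthinned 38.6%, 40.4%, 62.1% and 86.3%), and the share in B-like cells of SAT was 0.651% and 0.161%.

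Timp4, an inhibitor best known from heart and adipose tissue, was mainly a gene of SAT endothelial-like cells. It reached 435 CPM (395 to 479) in SAT control and 437 (394 to 482) in SAT D-CAN, against 19.6 (6.37 to 45.8) in tumor control and 9.71 (1.18 to 35.1) in tumor D-CAN. The tumor values rest on 5 and 2 UMIs, and the log2 ratios of tumor to SAT were -4.34 and -5.17. Mural-like cells had 68.7 and 155 CPM in SAT and 0 UMIs in both tumor libraries, so that SAT was at least 5.80-fold and at least 11.3-fold higher. No Timp4 UMI was found in fibroblast-like cells of any library. All 4 TIMPs summed to 361 and 398 CPM in tumor endothelial-like cells and to 1517 and 1628 in SAT.

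**Figure D2:**
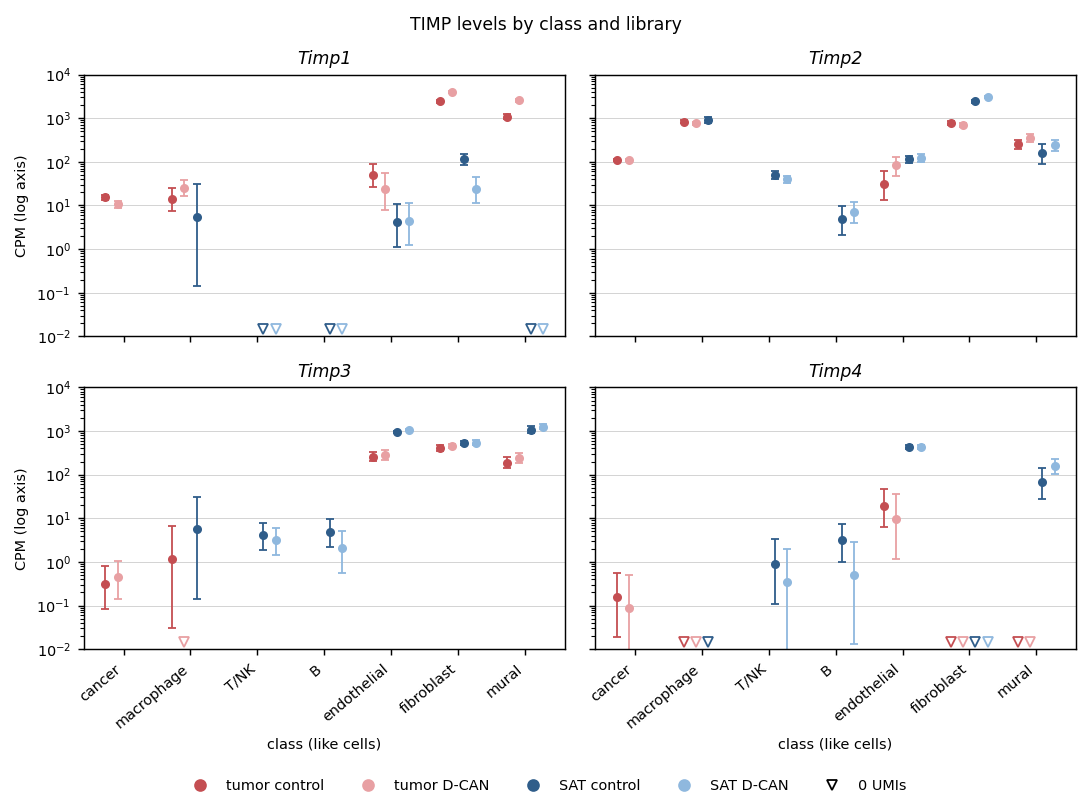
Level of the 4 TIMP genes by class and library, in CPM on a log axis with 95% Poisson intervals for counting error; triangles mark 0 UMIs and classes with fewer than 30 cells in a library are left out. Timp1 in fibroblast-like cells is at 2422 and 3936 CPM in tumor and at 115 and 24.0 in SAT, and Timp2 in the same cells is at 765 and 709.5 in tumor and at 2418 and 3121 in SAT.

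Mmp14 is the membrane-type MMP that cleaves fibrillar collagen at the cell surface and activates proMmp2. It was detected in fibroblast-like cells at 594 CPM (524 to 672), 609 (547 to 676), 372 (319 to 431) and 244.5 (199 to 297), higher in tumor in both pairs but by less than 2-fold in the control pair. In endothelial-like and mural-like cells the tissues lay further apart. Endothelial-like cells held 232 CPM (176 to 299) and 165 (114 to 231) in tumor against 11.4 (5.69 to 20.4) and 7.82 (3.14 to 16.1) in SAT. The log2 ratios were 4.29 and 4.32. In these cells the fibroblast list summed to 58.9, 102, 91.2 and 59.2 CPM and the mural list to 440, 529, 368 and 215 CPM. The macrophage list summed to 553, 238, 209 and 192 CPM, and the part of such RNA in the Mmp14 values was not tested. Mural-like cells held 403 and 402 CPM in tumor against 78.6 and 96.4 in SAT, with log2 ratios of 2.28 and 2.03. Macrophage-like cells had 142, 127, 78.0 and 79.2 CPM, while cancer-like cells had only 1.17 and 0.440 CPM. After thinning, Mmp14 was found in 19.2% and 14.9% of tumor endothelial-like cells and in 0.413% of those in SAT control and 0 of 143 in SAT D-CAN, which allows up to 2.10%. The unthinned shares were 42.0%, 29.8%, 2.81% and 3.92% at median depths of 2039, 2836, 1202 and 4325 UMIs, and 0.0922% of thinned cancer-like cells of tumor control had Mmp14.

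Mmp2, the gelatinase that is the substrate of that activation, differed little between tissues in fibroblast-like cells, at 634, 587, 695 and 719 CPM. In mural-like cells it was at 90.9 and 59.4 CPM in tumor and 19.6 and 5.35 in SAT, where the last value is a single UMI. The mural-like levels of Mmp2 and Mmp14 in tumor stood beside the higher fibroblast marker sum of those cells, and the part of that sum in them was not tested. Mmp14, Mmp2 and Timp2, the members of the activation complex, were all detected in the same thinned fibroblast-like cell in 10 of 98 cells (10.2%) of tumor control, 2 of 69 (2.90%) of tumor D-CAN, 12 of 117 (10.3%) of SAT control and 7 of 69 (10.1%) of SAT D-CAN. Without thinning the order was another, with 44.3%, 75.3% and 19.5% of cells and 37 of 74 cells of SAT D-CAN.

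A row of 9 secreted MMP genes lies next to each other on chromosome 9 of GRCm38, within 427 kb between 7272514 and 7699585, in the order Mmp13, Mmp12, Mmp1b, Mmp3, Mmp10, Mmp8, Mmp27, Mmp20, Mmp7. Of these, 5 reached 20 UMIs over the libraries, Mmp13 with 160, Mmp12 with 966, Mmp3 with 326, Mmp8 with 62 and Mmp27 with 56, while Mmp10 had 7, Mmp7 had 12, and Mmp1b and Mmp20 had none. Among classes of at least 30 cells, Mmp13 in tumor, Mmp3 in both tissues and Mmp27 in SAT were highest in fibroblast-like cells. In tumor, Mmp12 and Mmp8 were highest in macrophage-like cells. Promoters of the cluster are known for an AP-1 element near the start. The 100 bases before the start of Mmp13, Mmp12 and Mmp3 are therefore printed from RefSeq on GRCm38.p6. Timp1 is added for comparison because of its tissue difference. All 4 are on the forward strand, and capitals mark a match to TGANTCA, an AP-1 motif that reads the same on both strands.
Mmp13, chr9:7272414-7272513: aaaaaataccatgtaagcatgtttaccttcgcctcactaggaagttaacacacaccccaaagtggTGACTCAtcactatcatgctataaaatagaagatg
Mmp12, chr9:7347274-7347373: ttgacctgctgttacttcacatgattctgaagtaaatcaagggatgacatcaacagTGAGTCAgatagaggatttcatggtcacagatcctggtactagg
Mmp3, chr9:7445722-7445821: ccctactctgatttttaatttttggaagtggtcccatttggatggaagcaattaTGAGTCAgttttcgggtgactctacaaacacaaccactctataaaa
Timp1, chrX:20870066-20870165: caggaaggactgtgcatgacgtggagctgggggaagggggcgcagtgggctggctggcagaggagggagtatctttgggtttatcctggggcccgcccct

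The first base of the motif lay at -35 in Mmp13, -44 in Mmp12 and -46 in Mmp3. Mmp12 had 2 listed starts, and the window with the motif is the one shown. For the 26 genes found in the RefSeq table, TGANTCA was in 4 of 30 windows of 300 bases (13.3%), those of Adam19, Mmp12, Mmp13 and Mmp3, and in 7.81% of all 32851 windows. TATAAA on the given strand was in 4 of the 30 (Adamts1, Mmp12, Mmp13 and Mmp3) and in 8.32% of all. The windows of Mmp8, Mmp27 and Timp1 held no TGANTCA. A match of letters is no binding site in itself.

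Mmp13, an interstitial collagenase, was detected in tumor alone. In fibroblast-like cells it was at 50.7 CPM in tumor control, from 3 cells with 63.6% of the UMIs in 1 of them, and at 121 CPM in tumor D-CAN, from 9 cells with 28.6% in 1. Both SAT libraries had 0 UMIs, so tumor was at least 7.95-fold and at least 16.8-fold higher. Macrophage-like cells held 27.1 and 31.7 CPM in tumor, from 6 and 10 cells, and 0 UMIs in SAT, where 3 UMIs allowed for the 0 leave tumor at least 1.62-fold and at least 1.47-fold higher.

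Mmp12, the macrophage elastase, was highest in macrophage-like cells among the tumor classes. Its level in macrophage-like cells was 366 CPM (326 to 409) and 462 (420 to 508) in tumor, against 44.6 (19.2 to 87.8) in SAT control and 0 UMIs in the 28 cells of SAT D-CAN. The log2 ratio was 2.95 (2.04 to 4.26) for the control pair, and tumor was at least 21.4-fold higher in the D-CAN pair. Over the alternatives run, the control pair ranged from 1.499, with at least 2 markers asked for, to 4.198. SAT control had 42 Mmp12 UMIs in all its cells, while assigned cells of both SAT libraries together held 16. The rest lay in cells without a class, and their part in the tissue difference was not tested. The gene was concentrated in few cells, with UMIs in 44 of 398 and 28 of 288 tumor cells and a single cell holding 17.7% and 36.8% of them. In SAT control 3 macrophage-like cells held the 8 UMIs of that class, 62.5% of them in 1 cell. Thinned shares were 8.54% and 7.58% in tumor macrophage-like cells and 0 in SAT, which allows up to 8.11% and 11.5%, so that a difference in shares was not detectable with the 37 and 26 SAT cells left. Cancer-like cells of tumor control had Mmp12 in 0.0922% of thinned cells.

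Mmp3 (stromelysin-1) was found in fibroblast-like cells of both tissues at 203, 167, 151 and 156 CPM. These levels lay close together although only 15, 6, 29 and 18 cells carried the gene and 1 cell held 84.5% of the UMIs in tumor D-CAN. Mmp27, a little-studied member of the same cluster, was found mainly in SAT fibroblast-like cells. These cells were at 2.30 and 1.73 CPM in tumor, 1 UMI each, against 51.0 and 40.8 in SAT. The log2 ratios of tumor to SAT were -3.91 and -4.02. In both tumor libraries Mmp27 was highest in macrophage-like cells, with 10 UMIs in all assigned tumor cells. Mmp8, the neutrophil collagenase, and Mmp9, the gelatinase stored in neutrophil granules, were highest in the neutrophil-like cells of SAT, which were only 19 and 20 cells. Mmp8 stood there at 218 and 142 CPM from 6 and 11 UMIs, and Mmp9 at 328 and 361 CPM from 9 and 28 UMIs.

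The remaining MMPs, apart from Mmp16, were highest in stromal or endothelial cells. Mmp11 (stromelysin-3, a marker of tumor-associated fibroblasts in many carcinomas) was at 48.4, 58.7, 14.9 and 11.98 CPM in fibroblast-like cells, with log2 ratios of tumor to SAT of 1.64 and 2.18. In mural-like cells it was at 63.2, 114, 39.3 and 32.1 CPM. Mmp23, a small MMP released from the membrane, stood at 226, 231, 155 and 199 CPM in fibroblast-like cells, and Mmp19 at 53.0, 65.6, 53.1 and 16.8 CPM. The membrane-type Mmp15 was highest in endothelial-like cells, at 86.4, 43.7, 56.0 and 74.8 CPM. Mmp16 and Mmp17, also held in the membrane, stayed low: Mmp16 was at 5.49 and 4.55 CPM in T/NK-like cells of SAT, and Mmp17 at 19.8, 4.57, 9.82 and 21.4 CPM in mural-like cells from 1 to 5 UMIs per library.

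Among the ADAM genes, Adam9, Adam10, Adam15 and Adam17 were not 2-fold apart between tissues in both pairs in any class, whereas this was so in at least 1 class for Adam8, Adam12, Adam19, Adam23 and Adam33. Adam10, which cleaves Notch receptors and cadherins, was at 251, 180, 137 and 154 CPM in endothelial-like cells and at 64.5 and 70.3 CPM in cancer-like cells. Adam15, an adhesive ADAM, was at 271, 219, 194 and 218 CPM in endothelial-like cells. Cancer-like cells had 107 and 104 CPM of Adam15 and supplied 87.1% and 87.3% of its assigned tumor UMIs, while they held 87.5% and 84.6% of all assigned tumor UMIs. Adam17, which releases TNF and ligands of the EGF receptor, was at 106, 65.4, 173 and 194 CPM in macrophage-like cells. Adam9 was at 66.8, 69.1, 46.7 and 43.1 CPM in fibroblast-like cells.

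Adam8, a leukocyte ADAM, was at 260 CPM (226 to 296) and 278 (245 to 313) in tumor macrophage-like cells, against 39.0 (15.7 to 80.4) in SAT control and 0 UMIs in SAT D-CAN. The control pair gave a log2 ratio of 2.64, and in the D-CAN pair tumor was at least 12.8-fold higher. The SAT control value came from 7 UMIs in 3 cells, 71.4% of them in 1. Adam8 was also present in the 20 neutrophil-like cells of SAT D-CAN, at 206 CPM. Adam12, a protein of activated fibroblasts and of muscle, was higher in tumor fibroblast-like cells, at 113 and 81.1 CPM against 25.5 and 14.4 in SAT. Its log2 ratios there were 2.10 and 2.40, and 0.88 and 0.36 with every cell thinned to 1000 UMIs. In mural-like cells it had 51.4 and 68.6 CPM in tumor and 0 UMIs in SAT, at least 1.74-fold and at least 4.27-fold higher in tumor.

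Adam19, which can shed neuregulin, took opposite orders in different classes. In mural-like cells it was at 51.4 and 41.1 CPM in tumor and 0 UMIs in SAT (at least 1.74-fold and 2.56-fold higher), and in endothelial-like cells at 58.9 and 29.1 CPM against 3.11 and 6.70. In macrophage-like cells it was lower in tumor, at 8.26 and 14.8 CPM against 50.2 and 50.4 in SAT. These values rest on 7, 14, 9 and 7 UMIs, with log2 ratios of -2.58 (-4.26 to -1.01) and -1.82 (-3.18 to -0.22). The SAT macrophage-like cells held 479 and 1217 CPM of the B-cell marker list, and the part of such RNA in the Adam19 values was not tested. Adam23, an ADAM without a catalytic zinc site that binds integrins, was at 124, 124, 36.1 and 57.5 CPM in fibroblast-like cells. It also stood out in the dendritic-like cells of SAT, which were 29 and 36 cells, at 307 and 213 CPM. Adam33, a gene of airway and other fibroblasts, was lower in tumor fibroblast-like cells, at 29.95 and 20.7 CPM against 153 and 156 in SAT, with log2 ratios of -2.31 and -2.86.

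Other ADAM genes stayed at low counts. Adam7, a protein of the epididymis, had 19 and 2 UMIs in cancer-like cells of tumor control and tumor D-CAN, or 1.48 and 0.176 CPM. Adam22, a noncatalytic ADAM of the nervous system, was at 2.65 and 2.73 CPM in the same cells. Its highest level was in mural-like cells of tumor control and in fibroblast-like cells of tumor D-CAN. Adam4 had 30 UMIs and Adam11 had 44 UMIs in all cells of the 4 libraries. Adam4 overlaps Cox16 on the same strand, and Cox16 had 410 UMIs, so that its reads could be shared with that gene.

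Of the ADAMTS genes, Adamts5 and Adamts1 leaned to SAT, Adamts2 was higher in tumor mural-like cells, and Adamts4 differed in direction with the class. Adamts5 (aggrecanase-2, which also cuts versican) was at 221 CPM (179 to 270), 211 (175 to 251), 888 (805 to 977) and 788.5 (706 to 879) in fibroblast-like cells. SAT was higher by 3.999-fold in the control pair and 3.73-fold in the D-CAN pair. Adamts1, a versican-cleaving protease that also limits vessel growth, was at 71.1 and 54.9 CPM in tumor mural-like cells against 579.5 and 980 in SAT, 7.99-fold and 17.2-fold higher in SAT. In SAT control a single mural-like cell held 40.7% of its UMIs. Endothelial-like cells held 255, 194, 297 and 522.5 CPM of Adamts1, and fibroblast-like cells 131, 117, 198 and 326 CPM. After thinning, 7.69%, 6.25%, 21.9% and 42.5% of mural-like cells had an Adamts1 UMI (unthinned 24.6%, 34.4%, 32.0% and 70.7%).

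Adamts2, which removes the amino-terminal propeptide of fibrillar procollagens, was at 237, 373, 289 and 259 CPM in fibroblast-like cells, where its 2 pairs had log2 ratios of -0.28 (-0.67 to 0.10) and 0.52 (0.19 to 0.87). In mural-like cells it was at 446 CPM (368 to 537) and 489 (401 to 591) in tumor against 68.7 (27.6 to 142) and 26.8 (8.69 to 62.5) in SAT, and these tumor cells were those with the higher fibroblast marker sum. Adamts4 (aggrecanase-1) was higher in tumor endothelial-like cells, at 334 and 219 CPM against 42.5 and 75.9, and in tumor fibroblast-like cells, at 39.2 and 48.3 CPM against 12.8 and 4.79. In mural-like cells Adamts4 was lower in tumor, at 51.4 and 32.0 CPM against 226 and 112, but 1 cell held 87.0% of the SAT control UMIs, and without that cell the log2 ratio of the control pair was 0.17 in place of -2.11. Mmp11 overlaps Chchd10 on the other strand, so reads counted without regard to strand could be shared.

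Adamts6 was at 39.2 and 22.4 CPM in tumor fibroblast-like cells against 2.12 CPM (1 UMI) in SAT control and 0 UMIs in SAT D-CAN, with a log2 ratio of 3.66 in the control pair and at least 3.12-fold higher in the D-CAN pair. T/NK-like and B-like cells of SAT also carried Adamts6, at 9.15 and 8.395 CPM and at 6.84 and 10.8 CPM. Adamts7, which cleaves cartilage oligomeric matrix protein, was at 58.9 and 14.6 CPM in tumor endothelial-like cells against 4.15 and 4.47 in SAT. Its D-CAN pair rests on 3 and 4 UMIs, with a log2 ratio of 1.76 and an interval of -1.07 to 4.27. Adamts9 was at 149, 151, 142 and 210 CPM in endothelial-like cells. Adamts12 was at 86.9, 105, 29.5 and 64.2 CPM in mural-like cells, and Adamts15 was at 32.3, 25.9, 70.1 and 38.4 CPM in fibroblast-like cells. Adamts10, Adamts14, Adamts16 and Adamts18 had 223, 32, 36 and 20 UMIs in all cells, and Adamts16 was at 29.95, 10.4, 12.7 and 11.98 CPM in fibroblast-like cells.

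To see how many genes differed between the tissues in each class, tumor was compared with SAT in the control pair and the D-CAN pair, and a gene was counted where it was at least 2-fold apart in the same direction in both. The 20 UMI limit was set on the sum of the 4 libraries of a class, for all genes alike. A gene could therefore enter a count through the tissue in which it was high. Mmp13, with 0 UMIs in SAT, did so in fibroblast-like and macrophage-like cells. In fibroblast-like cells 7 of 28 genes with 20 UMIs (25%) were higher in tumor (Adam12, Adam23, Adamts4, Adamts6, Mmp11, Mmp13 and Timp1), against 7.2% of all 8127 genes tested. In the other direction 4 of 28 (14.3%) were lower in tumor (Adam33, Adamts5, Mmp27 and Timp2), against 6.61% of all genes. The median log2 ratio was 0.28 in the control pair and 0.16 in the D-CAN pair, where all tested genes had 0.09 and 0.07. With every cell thinned to 1000 UMIs, and the 20 UMI limit applied to the thinned counts, 2 genes were higher in tumor. No share over all genes was computed for that setting.

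In mural-like cells 6 of 19 genes (31.6%) were higher in tumor (Adam12, Adam19, Adamts2, Mmp14, Mmp2 and Timp1) against 10% of all genes, and 5 (26.3%) were lower (Adamts1, Adamts4, Adamts9, Timp3 and Timp4) against 12.3%. Adam12 and Adam19 passed 2-fold in the control pair only through the 0.5 UMI added to 0 UMIs in SAT, their bounds there being 1.74-fold. For Adamts9 the values were 11.9, 18.3, 39.3 and 48.2 CPM, and the intervals of both ratios held 0. The medians were 0.56 and 1.36 beside -0.01 and -0.03 for all genes. The 6 higher genes were all detected in fibroblast-like cells too, and they stood beside the fibroblast marker sums of 10005 and 15734 CPM in tumor mural-like cells. With the stricter separation of stromal cells, those sums were 8251 and 16063 CPM in 35 and 16 tumor cells, Timp1 was at 911 and 797 CPM in tumor and 0 UMIs in SAT, and the part of fibroblast RNA in these values was not tested. The 6 became 3 when cells were assigned after thinning or 50 UMIs were asked for, settings for which no share over all genes was computed.

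In endothelial-like cells 5 of 19 genes (26.3%) were higher in tumor (Adam19, Adamts4, Adamts7, Mmp14 and Timp1), against 5.68% of all genes, and Timp3 and Timp4 (10.5%) were lower, against 5.65%. Timp1 was at 51.0, 24.3, 4.15 and 4.47 CPM in these cells, from 13, 5, 4 and 4 UMIs. Adam19 had 15, 6, 3 and 6 UMIs there. With every cell thinned to 1000 UMIs 1 gene was higher, with Adamts4 at a log2 ratio of 0.21 in the D-CAN pair in place of 1.53. When 50 UMIs were asked for, 2 were higher. Neither setting has a share over all genes beside it. The medians were 0.49 and 0.24 beside -0.00 and 0.07 for all genes. In macrophage-like cells 3 of 12 (25%) were higher in tumor (Adam8, Mmp12 and Mmp13) against 4.36%, and Adam19 (8.33%) was lower against 6.33%. Mmp13 passed only through the 0.5 UMI added to 0 UMIs in SAT, since its bounds were 1.62-fold and 1.47-fold. The medians were 0.72 and 0.66, or 0.62 and 0.48 with genes at 0 in 1 library set to their bounds, beside -0.11 and -0.14. The SAT D-CAN side of the macrophage count is the library with 28 cells, which held 1217 CPM of the B-cell marker list, against 479 in SAT control and 90.9 and 88.6 in tumor. In SAT 9 of the 10 B-cell markers were detected there, and in tumor 4 of 10, and their part in the macrophage values was not tested.

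**Figure D3:**
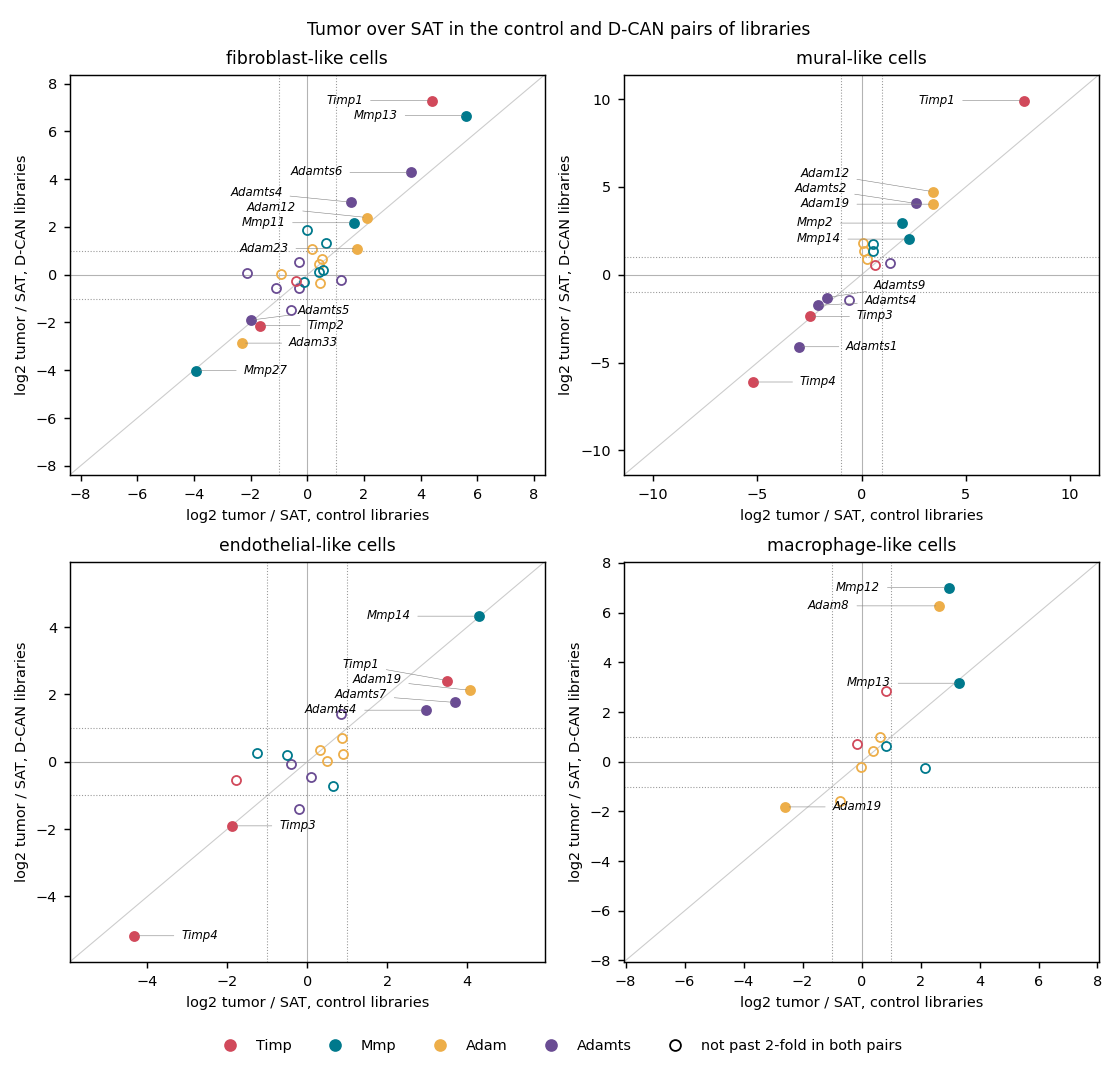
Log2 ratio of tumor to SAT in the control libraries (horizontal axis) and the D-CAN libraries (vertical axis), 1 panel per class and 1 point per gene with at least 20 UMIs; filled points are named and lie past 2-fold (dotted lines) in both pairs, and colours mark the 4 families. Timp1 in fibroblast-like cells lies at 4.39 and 7.29 and Timp4 in endothelial-like cells at -4.34 and -5.17; points of genes with 0 UMIs in a library, such as Timp1 in mural-like cells and Mmp13, depend on the 0.5 UMI added.

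The D-CAN peptide was aimed at adipose stromal cells, so its libraries were compared with the control libraries in the summed fibroblast-like and mural-like cells. In tumor stroma 1 of 27 genes (3.70%) was at least 2-fold apart, against 4.25% of all genes tested. It was Mmp13, at 32.0 CPM in control and 87.7 CPM in D-CAN, with a log2 ratio of 1.43 (0.75 to 2.22). Timp1 was at 1928 and 3565 CPM, a log2 ratio of 0.89 (0.79 to 0.98), and Adamts2 at 314 and 405 CPM, a log2 ratio of 0.36 (0.11 to 0.62). The median over the 27 genes was 0.08, beside -0.01 for all genes. With the stricter separation of fibroblast-like from mural-like cells, the Mmp13 ratio was 0.96 and no gene was counted. Timp1 was then at 2291 and 3250 CPM in fibroblast-like cells of tumor control and tumor D-CAN. In mural-like cells, 35 and 16 in number, it was at 911 and 797 CPM. Before that separation, a single cell held 57.3% of the Timp1 UMIs of tumor D-CAN mural-like cells.

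In SAT stroma 3 of 26 genes (11.5%) were at least 2-fold apart, against 9.59% of all genes. Timp1 was lower in D-CAN, with 94.3 CPM in control from 54 UMIs and 16.6 CPM in D-CAN from 10 UMIs, a log2 ratio of -2.45 (-3.65 to -1.52). Mmp19, an MMP of the basement membrane and of macrophage-rich tissue, was lower too, at 43.7 and 11.6 CPM from 25 and 7 UMIs, a log2 ratio of -1.84 (-3.37 to -0.66). Timp4 was higher in D-CAN, at 12.2 and 48.0 CPM from 7 and 29 UMIs, a log2 ratio of 1.90 (0.75 to 3.41), which was 0.45 when cells were assigned after thinning. Fibroblast-like cells made up 241 of the 291 stromal cells in SAT control and 74 of 115 in SAT D-CAN, and all Timp4 UMIs of this sum were in mural-like cells. Below the 2-fold limit, Adamts1 was at 265 and 528 CPM (log2 ratio 0.99, 0.71 to 1.28) and Mmp14 at 320 and 199 CPM (-0.68, -1.03 to -0.35). Median depth of the fibroblast-like cells was 974 UMIs in SAT control and 5586 in SAT D-CAN, and the part of depth in these ratios was not tested. The median over the 26 genes was -0.20, beside 0.03 for all genes.

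**Figure D4:**
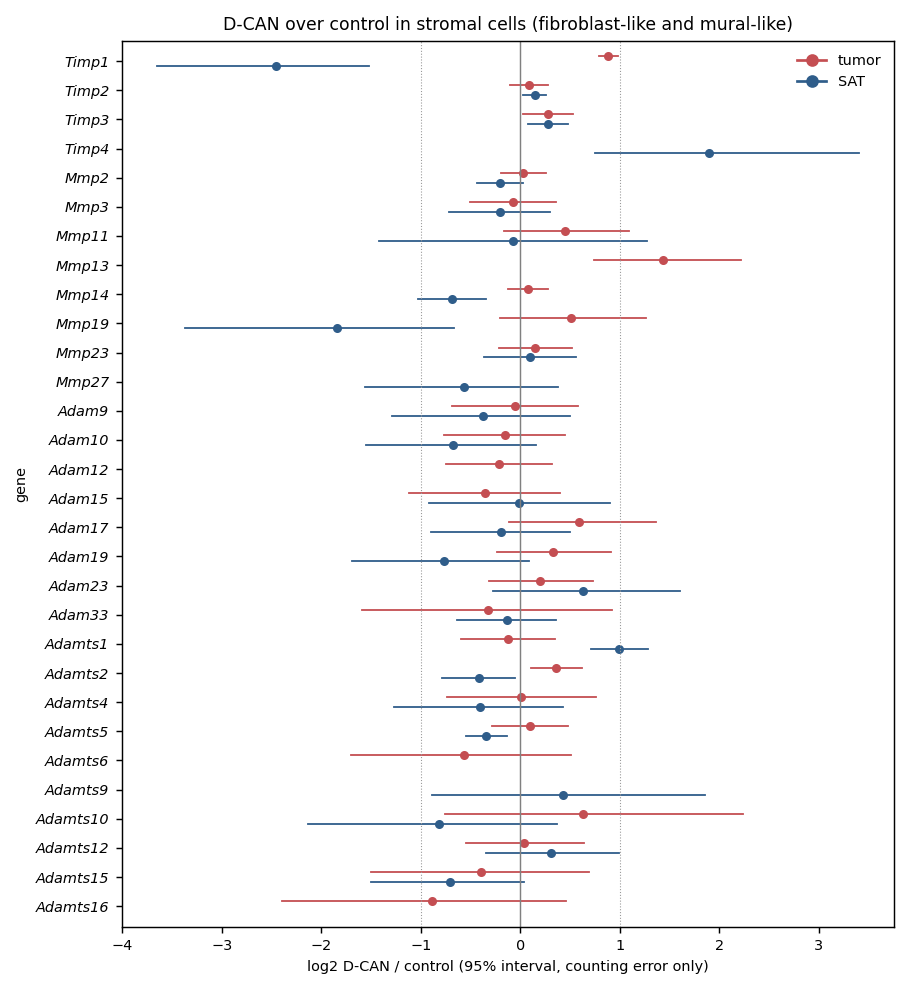
Log2 ratio of D-CAN to control in the summed fibroblast-like and mural-like cells of tumor and of SAT, 1 point per gene with its 95% counting interval and lines at 2-fold. Timp1 lies at 0.89 in tumor and at -2.45 in SAT, and Mmp13 in tumor lies at 1.43.

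In the other classes compared, genes at least 2-fold apart between D-CAN and control were counted only in tumor cancer-like cells. In tumor cancer-like cells 3 of 14 (21.4%) were at least 2-fold apart, against 1.66% of all genes, and all 3 were lower in D-CAN at low counts: Adam7 with 19 and 2 UMIs, Adamts9 with 16 and 6, and Mmp14 with 15 and 5. Their log2 ratios were -2.79 (-6.22 to -1.02), -1.17 (-2.88 to 0.19) and -1.32 (-3.22 to 0.12), of which the last 2 intervals held 0, and none of these 3 remained in the test when 50 UMIs were asked for. In tumor macrophage-like cells 0 of 12 were 2-fold apart, against 3.67% of all genes, with ratios from -0.70 for Adam17 to 0.81 for Timp1. When cells were assigned after thinning, 5 were, and the share over all genes was not computed for that assignment. In SAT endothelial-like cells 0 of 13 were, against 3.74%, with Adamts1, Adamts4 and Adamts9 at log2 ratios of 0.81, 0.83 and 0.56. In SAT macrophage-like cells 0 of 4 were, against 15.2%, and Timp2 had a log2 ratio of -0.97 (-1.42 to -0.55).

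Proteins that activate or restrain metalloproteinases were read beside them from a list of 27 genes, covering proprotein convertases, the plasminogen activator system, the Adam10 and Adam17 escorts and Adamts-like proteins. In fibroblast-like cells 19 had 20 UMIs, of which 4 were at least 2-fold higher in tumor in both pairs and 5 lower, beside the 7.2% and 6.61% of all genes. Serpine2, an inhibitor of thrombin and of plasminogen activators, was at 809, 1407, 119 and 153 CPM. The proprotein convertase Pcsk5 was at 164, 188, 42.5 and 47.9 CPM, and the urokinase receptor gene Plaur at 29.95, 32.8, 6.37 and 4.79 CPM. Lower in tumor were Pcsk6 (46.1, 43.2, 106 and 139 CPM), Plau, Tspan5, Adamtsl4 and Adamtsl5. In tumor control and tumor D-CAN, Tspan5 had 3 and 13 UMIs, Adamtsl4 3 and 4, and Adamtsl5 3 and 8. The D-CAN pair of Tspan5 had a log2 ratio of -1.004, and its interval of -2.16 to 0.07 held 0.

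Plaur was higher in tumor in mural-like and endothelial-like cells as well. Of 11 listed genes tested in mural-like cells, 4 were higher (among them Bsg, Plaur and Serpine2) and 2 lower (Tspan15 and Adamtsl1), beside 10% and 12.3% of all genes. Plaur had 0 UMIs in SAT mural-like cells, with bounds of 2.28-fold and 1.99-fold, and the control pair of Tspan15 rests on 6 and 5 UMIs with an interval of -3.03 to 0.9998 on the log2 scale. Of 14 in endothelial-like cells 3 were higher (among them Plaur and Plat) and 0 lower, beside 5.68% and 5.65% of all genes. In macrophage-like cells 3 of 11 were higher and 1 lower, beside 4.36% and 6.33%. Bsg, which encodes an inducer of MMPs, was at 406, 350, 145 and 137 CPM there, and Furin, which cleaves the propeptide of Mmp14 and many ADAMs, at 431, 246, 83.6 and 72.0 CPM. Tspan10, an escort of Adam10, was the 1 gene lower, with 0 UMIs in tumor and 117 and 43.2 CPM in SAT.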

How the data were processed

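The deposited files were 4 tables of UMI counts per gene and cell. The authors made these counts with Cell Ranger 3.1.0 and STAR 2.6 against mm10 per the labels, from Chromium Single Cell 3′ v3.1 libraries, and the header of the SAT D-CAN matrix names Cell Ranger 3.0.2. Whether counting used strand was not given in the sources used here. The genes and lists were chosen with earlier results of these data known. Cells with 200 genes joined the compartment with the most detected markers, at least 3 of 10, if the next compartment had at most 0.5 times as many; leukocytes joined a subtype with at least 2 markers and more than any other. The lists were cancer, leukocyte, endothelial, fibroblast and mural cells, and macrophage, dendritic, neutrophil, T/NK and B subtypes. Of the rest, 1803 cells had too few markers, 303 were mixed and 180 were left unresolved. The 180 were leukocytes of no subtype or stromal cells with equal numbers of fibroblast and mural markers. No doublet caller was run; mixed cells were left out.

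UMIs were summed per class and library (CPM, exact Poisson intervals), genes with 20 UMIs in a class were compared with 0.5 UMI added, ratios have exact binomial intervals, and cells were thinned to 1000 UMIs for shares. A count of 0 was allowed 3 UMIs. Values are given for TIMPs, for genes with 100 UMIs in their highest class, for those past 2-fold, and for listed regulators past 2-fold; some of these values are not reported here. Gene positions were from GENCODE release M21 (GRCm38), promoters from RefSeq (GRCm38.p6). Python 3.11.15, numpy 2.4.6, scipy 1.17.1, pandas 2.3.3 and matplotlib 3.10.9 were used. Tested on simulated counts, the tumor to SAT comparison of fibroblast-like cells in the control pair recovered 195 of 197 changed genes over 5745. Of the unchanged genes, 3.24% passed 2-fold. Changed genes were set to a log2 ratio of 2 in either direction, and counts were Poisson draws without spread between cells. The test covered neither smaller changes, nor calls asked for in both pairs, nor genes held by few cells.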

Additional observations from a re-analysis of the deposited data

Results flagged for a closer look

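Timp1 and Adamts2 lay on opposite sides of control in the D-CAN libraries of tumor and SAT, in the summed fibroblast-like and mural-like cells. Timp1 had a log2 ratio of D-CAN to control of 0.89 in tumor and -2.45 in SAT. For Adamts2 it was 0.36 in tumor and -0.42 in SAT. In SAT control and SAT D-CAN, Adamts2 was at 289 and 259 CPM in fibroblast-like cells and 68.7 and 26.8 in mural-like cells. Fibroblast-like cells made up 241 of 291 stromal cells in SAT control and 74 of 115 in SAT D-CAN. The part of this mix in the Adamts2 ratio was not tested. With stricter separation of stromal classes, Timp1 in tumor was at 2291 CPM in control and 3250 in D-CAN in fibroblast-like cells. In tumor mural-like cells it was then at 911 CPM in control and 797 in D-CAN. With 1 library per group, neither difference between the tissues was tested. Adam11, a brain ADAM without protease activity, was flagged because 18 of its 44 UMIs lay in cells that no class took up, with 0, 4, 7 and 7 of them in tumor control, tumor D-CAN, SAT control and SAT D-CAN. Only 59.1% of the Adam11 UMIs were in assigned cells.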

How the results depend on the processing

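No paired analysis was possible because the labels give no replicate numbers and each group is 1 library. A fit of tissue with treatment as a term was not run. The following 6 alternatives were chosen after seeing the data: each pair of libraries alone, assignment after thinning, every cell thinned to 1000 UMIs, leaving out for each gene the cell with most of its UMIs, and stricter separation of stromal classes. Of the recomputed counts of genes, 169 stayed within 1.5 times the reported count and 39 did not. Of the ratios past 2-fold as first computed, 816 moved by less than their counting interval, 21 by more, and 3 changed sign. All 3 were Adamts4 in mural-like cells of the control pair. Its log2 ratio was 0.23 with the next compartment at most 1 marker and 0.45 without the 2% of cells with most UMIs. Without the top cell it was 0.17. Some recomputed values could not move, and they are included in these tallies. A pair of libraries alone leaves its own ratios as they were. Stricter separation of stromal classes leaves the ratios and counts of the other classes as they were. Of the shares, 54 of 148 moved with thinning to 500 UMIs and 59 without thinning.

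With every cell thinned, 13 genes were highest in SAT stroma, 2 were higher in tumor fibroblast-like cells, 3 were higher and 2 lower in mural-like cells, 1 was higher in endothelial-like cells and 0 were lower in macrophage-like cells. The D-CAN counts were then 0 in cancer-like cells, 1 each in tumor and SAT macrophage-like cells and 1 in SAT stroma. Asking for 50 UMIs left 3 higher and 3 lower in mural-like cells, 2 higher in endothelial-like cells, 0 lower in macrophage-like cells, and for D-CAN 0 in cancer-like cells and 1 in SAT stroma. Assignment after thinning gave 3 higher in mural-like cells and, for D-CAN, 0 in cancer-like cells, 5 and 3 in tumor and SAT macrophage-like cells and 2 in tumor stroma. Without the top cell of each gene, 3 were lower in mural-like cells, 6 were higher in macrophage-like cells, and D-CAN counts were 1 each in tumor and SAT macrophage-like cells and 3 in tumor stroma. The control pair alone gave 4 lower in endothelial-like cells, and the D-CAN pair alone 10 higher in mural-like and 2 lower in macrophage-like cells. With the next compartment at most 1 marker, D-CAN counts were 2 in tumor stroma, 8 in SAT stroma and 1 in SAT macrophage-like cells. Without the 2% of cells with most UMIs, 3 were lower in mural-like cells, and D-CAN counts were 5 in SAT stroma and 1 in SAT macrophage-like cells. Asking for 2 or 4 markers gave 1 in SAT macrophage-like cells, and 4 markers gave 0 in cancer-like cells. Stricter separation gave 0 in tumor stroma. The genes tested were those that passed the UMI limit under each setting, and their numbers are not reported here. No share over all genes was computed for these settings. The counts can therefore not be set beside the shares given for the main setting. The causes were not tested.

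Timp1 kept its order of tissues in fibroblast-like cells under all alternatives run, with log2 ratios of 4.06 to 4.70 in the control pair and 6.99 to 7.55 in the D-CAN pair. SAT macrophage-like cells were few (49 and 28), as were tumor mural-like cells (57 and 32), and thinning left out 124 of 241 fibroblast-like cells of SAT control.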
